A study of Mus musculus with 50 samples.

Results

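The genes described here are 54 protein-coding genes of mitosis and chromosome segregation, taken as a list of gene symbols and matched to the symbols in the count file of each mouse. All 54 were found in the files and all 54 were tested. The RNA came from hippocampal microglia of 50 male C57BL/6J mice, the resident macrophages of the brain, which were sorted as single viable DRAQ5+, CD45int and CD11b+ cells, a gate meant to leave out CD45-high cells. Early-life stress (ELS) was given by limited bedding and nesting material from postnatal day (P) 2 to P9, and control (CTR) litters had standard housing. The files held 12 P9-CTR and 13 P9-ELS mice killed at P9 without injection, and mice raised to P200 that received PBS (7 CTR, 6 ELS) or 1 mg/kg of the bacterial product lipopolysaccharide, LPS (7 CTR, 5 ELS), 3 h before they were killed. These adult groups are called CTR-PBS, ELS-PBS, CTR-LPS and ELS-LPS. Both hippocampi of a mouse were pooled into 1 sample. The study's methods give 1 fewer P9-ELS mouse than the files hold, while its first figure legend and its results give 13. Myelin was removed with Percoll only from the adult tissue, only adults were injected, and the ages came from separate cohorts. Age cannot be told apart from these differences in any comparison of P200 with P9.

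Mitosis is driven by the kinase CDK1 bound to cyclins A and B, which is switched on by CDC25 phosphatases and assisted by Polo-like and Aurora kinases. Kinetochores built on the centromeres attach chromosomes to the spindle, and the spindle checkpoint holds back the anaphase-promoting complex (APC/C) until all are attached. The APC/C with CDC20 then destroys securin, which frees separase to cut the cohesin rings between sister chromatids. Transcripts of most of these proteins are made mainly in G2 and M phase, under the MuvB complex with the transcription factors B-MYB and FOXM1, and microglia are known to divide in the first weeks after birth and rarely in the adult brain.

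MuvB complexes bind a promoter element called the cell cycle genes homology region (CHR), and the nuclear factor NF-Y binds CCAAT boxes near it. The promoter window of each gene was read from 250 bases before to 50 bases from the transcription start of the canonical transcript (GRCm39, GENCODE M39). On either strand, the CHR letters TTTGAA or TTCGAA were present in 30 of the 54 windows (55.6%), against 18.8% of all 21626 protein-coding promoters and 16.8% of 1973 other genes that were lower at P200 than at P9 in both conditions. TTCGAA reads the same on both strands, and TTTGAA reads TTCAAA on the other. The letters CCAAT were in 35 of the 54 windows (64.8%), against 39.9% of all promoters. Most of the difference in CHR matches lay at the start site. Within 50 bases of the start 25 of the 54 (46.3%) had a match, against 4.47% of all promoters and 5.98% of the other genes lower at P200, while 51 to 250 bases before the start 10 of the 54 (18.5%) and 3263 of the 21626 promoters did. The window at the start was chosen after the positions were seen.

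The following 30-base stretches of GRCm39, on the sense strand of each gene, show such matches with the letters in capitals. They were chosen after the values were known, to show a match of genes from several roles, with Hmmr as the spindle gene of the largest fall in CTR, and Bub3 and Espl1, which were not called with age.
Cdk1 (chr10:69188740-69188769, minus strand, 12 bases after the start): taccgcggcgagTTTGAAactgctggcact
Aurkb (chr11:68936462-68936491, plus strand, 8 after): tagagcgggagaTTCGAAagcgtccgggtc
Cenpf (chr1:189420264-189420293, minus strand, 32 after): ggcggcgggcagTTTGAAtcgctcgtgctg
Racgap1 (chr15:99549515-99549544, minus strand, 6 after): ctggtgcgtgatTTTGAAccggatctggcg
Hmmr (chr11:40624239-40624268, minus strand, 25 after): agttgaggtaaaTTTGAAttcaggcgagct
Top2a (chr11:98915021-98915050, minus strand, 4 after): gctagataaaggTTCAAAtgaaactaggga
Bub3 (chr7:131162044-131162073, plus strand, 26 before): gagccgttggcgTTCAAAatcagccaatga
Espl1 (chr15:102204689-102204718, plus strand, 1 after): tcactagggataTTTGAAaggaggtgctgg
Racgap1, Hmmr, Top2a and Cdk1 fell with age and Bub3 and Espl1 did not pass the test, and all have these letters within 50 bases of the start. The window held no match for Ccnb1, Birc5, Mki67, Foxm1 and 20 other members. A match of letters is a description and not a measured binding site.

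**Figure D1:**
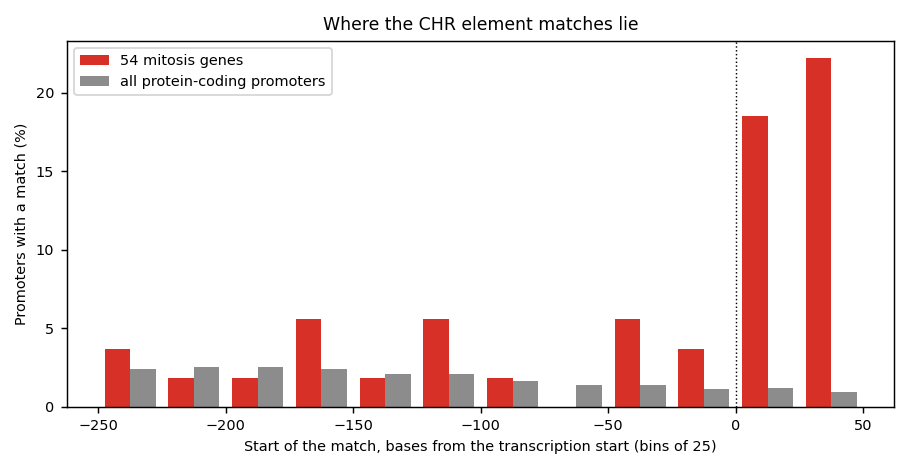
Share of promoters (%) with a match to the CHR letters, by the position of the match in bins of 25 bases from the transcription start (0 on the horizontal axis), for the 54 mitosis genes (red) and all protein-coding promoters (grey). In the first 25 bases from the start 18.52% of the mitosis genes and 1.21% of all promoters had a match, and in the next 25 bases 22.22% and 0.93%.

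Total counts of the 50 mice ranged from 5152838 to 42231258, with 19960409.5 as the median, and 12482 to 21100 genes had a count. Mice P9_19.2_ELS and P9_19.3_ELS and P200_1.1_CTR_PBS stood apart with 15731, 12482 and 12854 detected genes. Levels are given as CPM, counts relative to the total of the library, scaled between libraries by TMM. Called genes had an adjusted p under 0.05 together with a log2 fold change of more than 1 in size in edgeR's quasi-likelihood (QL) test over 16696 genes, fitted on all 50 mice. The mice are separate animals, and errors after ± are SDs, and SE is the standard error of a log2 fold change.

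The mitosis genes were at high levels at P9 and most were close to the detection limit at P200. In CTR 51 of the 54 were called lower at P200 in PBS mice than at P9, where 18.5% of all genes tested were, and 1 (Pttg1) was called higher, where 7.98% were. In ELS the counts were again 51 lower and 1 higher, against 17.5% and 8.68% of all genes. The median log2 fold change of the 54 was -5.31 in CTR, which is 39.6-fold lower, and -5.14 in ELS, 35.2-fold lower, with medians of -0.09 and -0.01 over all genes tested. In both conditions 46 of the 54 had a log2 fold change below -3. The levels of all P200 PBS mice were below those of all P9 mice for 50 members in CTR, as for 10.5% of all genes. In ELS this held for 48 members, as for 7.03% of all genes. Bub3 and Espl1 were the members not called in either condition. Without the 3 mice with few detected genes, 52 members were again called in each condition. In bulk samples, fewer dividing cells and less RNA per cell cannot be told apart.

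**Figure D2:**
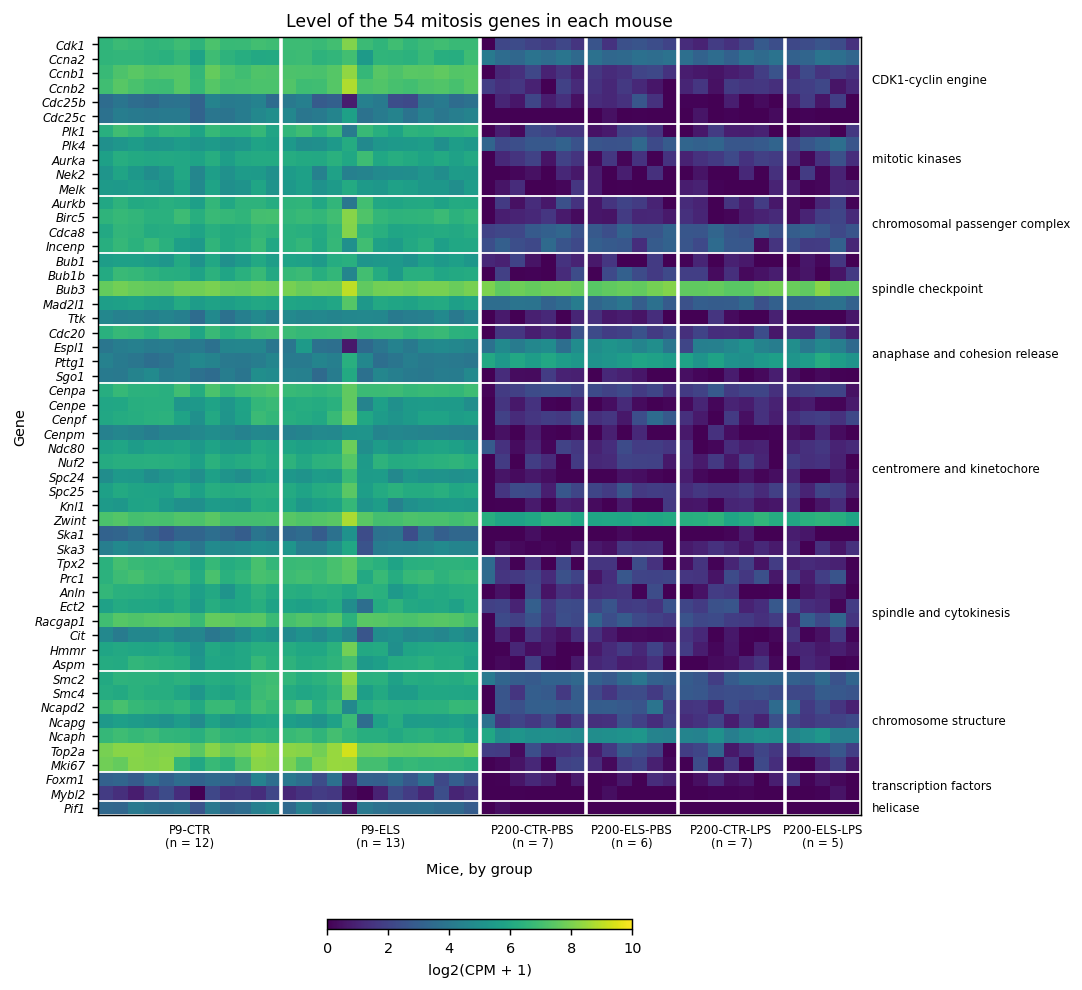
Level of the 54 mitosis genes, in rows by role, in each of the 50 mice, in columns by group, as log2(CPM + 1). The P9 columns are bright in nearly every row, and in the adult columns the brightest rows are Bub3, Zwint, Pttg1, Ncaph and Espl1, which hold 75.5% to 78.9% of the adult sum.

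Summed over the 54 genes, P9-CTR mice had 2734 to 4814 CPM and P9-ELS mice 3360 to 7731 CPM. Adult mice of the 4 groups had 386.8 to 640.8 CPM with a median of 481. The highest P9 value was from mouse P9_19.2_ELS, which was the highest of its group for 34 of the 54 genes. That mouse was above the group median for 38 genes and had few reads of some others. For example, it had 332 counts of Plk1 and 290 of Aurkb, against 2045 and 1943 in mouse P9_9.1_ELS. Without mice P9_19.2_ELS and P9_19.3_ELS the P9-ELS range was 3360 to 4793 CPM. The sum thus separated the ages in every mouse, and most of what remained in adults came from few genes. The 5 members with the highest adult levels held 12.5% and 13.2% of the summed group means at P9 and 77.5% and 75.5% in CTR-PBS and ELS-PBS. The other 49 summed to 3430 and 3580 CPM in P9-CTR and P9-ELS, and to 113, 121, 96.3 and 103 CPM in CTR-PBS, ELS-PBS, CTR-LPS and ELS-LPS. All but 1 member had a count in every P9 mouse, and 17 had one in every adult mouse. In adult PBS mice 7 members averaged at least 10 CPM, 19 lay between 2 and 10, and 28 were under 2 CPM, so their adult levels rest on few reads. In mouse P200_1.1_CTR_PBS, 22 members had a count, the lowest number of any mouse.

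The P9 mice also differed from each other along the whole list. Of the 54 genes, 5 were above the group median in mouse P9_51.2_CTR, which had the lowest sum of P9-CTR, and 51 in mouse P9_58.1_CTR, which had the highest of that group. The part of a mouse number before the point was read as the nest, which the labels do not state. By that number, the mean sum was 3476.5 to 4569.5 CPM in CTR and 3568 to 5372.7 CPM in ELS, the highest being number 19 with mice P9_19.2_ELS and P9_19.3_ELS. The median coefficient of variation of a member was 22.0% in P9-CTR, 38.8% in P9-ELS (17.8% without those mice) and 85.5% in CTR-PBS. Mki67, the Ki-67 proliferation marker, had the largest SD of the members in P9-CTR (92.8 CPM), with levels of 62.2 to 299 CPM and a median of 214. Per kilobase of exon, the highest members at P9 were Ccnb2 (68.52 CPM per kb), Cdc20 (50.39) and Ccnb1 (36.69), and in adult PBS mice Pttg1 (19.69) and Bub3 (14.62).

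Within the CDK1-cyclin engine all 6 genes were called lower in both conditions, with median log2 fold changes of -5.89 in CTR and -5.60 in ELS. Ccnb1 (cyclin B1, chr13:100915153-100923116) was at 97.7 to 197 CPM in P9-CTR with a median of 148. In CTR-PBS mice it was at 0, 1.15, 1.63, 3.33, 0.927, 1.83 and 0.751 CPM. No P200 mouse came near the P9 range, and the log2 fold change was -6.76 (SE 0.43, edgeR QL adjusted p = 1.90e-18) in CTR and -6.22 in ELS. Cdc25c, a phosphatase that activates CDK1, was at 16.7 ± 5.65 CPM (n = 12) in P9-CTR and had no count in any of the 7 CTR-PBS mice. Taking 3 counts over the group as the floor, it was at least 835-fold lower, which covers counting error only. In ELS-PBS it had 11 counts in 2 of 6 mice. Ccna2 (cyclin A2), which also acts in S phase, kept more of its level, going from 84.7 ± 17.6 to 11.9 ± 2.56 CPM (n = 7) in CTR, and its exons overlap those of Exosc9 on the other strand over 17.5% of their length. The pseudogene Ccnb2-ps averaged 0.421 to 1.83 CPM in the 6 groups, about as high as Ccnb2 itself in adults (1.13 to 2.00 CPM), so the adult level of Ccnb2 is uncertain.

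The 5 mitotic kinases and the 4 genes of the chromosomal passenger complex, which corrects wrong attachments, were all called lower in both conditions. Plk1, the kinase that drives entry into mitosis, went from 86.3 ± 19.7 CPM (n = 12) in P9-CTR to 1.65 ± 1.41 CPM (n = 7) in CTR-PBS, and Nek2, a centrosome kinase, from 40.1 ± 11.5 to 0.314 ± 0.428 CPM. In ELS the largest fall of the kinases was that of Melk, from 43.4 ± 9.74 to 0.136 ± 0.307 CPM (log2 fold change -7.97). Plk4, which starts the copying of centrioles, fell least of the kinases, by 2.81 on the log2 scale in both conditions, and overlaps Mfsd8 on the other strand over 15.3% of its exons. Birc5 (survivin) went from 100.3 ± 17.9 to 0.836 ± 0.658 CPM, a log2 fold change of -6.98 in CTR and -6.86 in ELS. Incenp and Cdca8, the scaffold and a targeting subunit, fell less, with -3.86 and -3.88 in CTR.

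Of the 5 spindle checkpoint genes 4 were called lower in both conditions, and Bub3 was not. Bub1b (BUBR1), which blocks CDC20, went from 80.4 ± 18.22 to 1.17 ± 1.63 CPM in CTR, with log2 fold changes of -5.995 in CTR and -4.49 in ELS. In ELS the largest fall was that of Bub1, the kinase that recruits other checkpoint proteins, from 48.4 ± 13.7 to 0.811 ± 1.05 CPM (log2 fold change -5.86). Mad2l1 (MAD2) went from 52.6 ± 7.53 to 12.0 ± 3.00 CPM. Bub3 (chr7:131161880-131178553) encodes a protein that also binds spliceosome components outside mitosis. It was at 187 to 256 CPM in P9-CTR and at 181, 198, 201, 219, 219, 225 and 259 CPM in CTR-PBS, so that the groups overlapped throughout. Its log2 fold change was 0.01 (SE 0.13, edgeR QL adjusted p = 0.970) in CTR and -0.24 (SE 0.13, adjusted p = 0.149) in ELS.

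The anaphase genes did not move together, with 2 of 4 called lower, 1 higher and 1 not called in each condition. Cdc20, the APC/C activator, went from 95.1 ± 19.0 to 1.65 ± 1.46 CPM in CTR, and Sgo1 (shugoshin), which protects cohesin at centromeres, had log2 fold changes of -4.44 in CTR and -5.57 in ELS, the largest fall of the role in ELS. Pttg1 (securin, chr11:43311071-43321000), the inhibitor of separase, moved the other way. It was at 11.14 to 24.7 CPM in P9-CTR with a median of 17.13, and at 38.1, 41.2, 46.4, 47.0, 62.8, 63.2 and 64.4 CPM in CTR-PBS. Every adult CTR mouse was thus above every P9-CTR mouse, with a log2 fold change of 1.56 (SE 0.23, edgeR QL adjusted p = 2.65e-07). In ELS the level was 21.7 ± 17.5 CPM (n = 13) at P9 and 45.0 ± 8.93 CPM (n = 6) in PBS adults, a log2 fold change of 1.05 (adjusted p = 0.00032), and the groups overlapped, with mouse P9_19.2_ELS at 78.8 CPM. Without the 3 mice with few detected genes the ELS value was 1.47, and without mouse P200_17.1_ELS_PBS it was 0.97, below the threshold of 1. Espl1 (separase, chr15:102204701-102233535) had P9-CTR levels of 12.3 to 23.4 CPM and CTR-PBS levels of 11.17 to 28.0 CPM, and was not called (log2 fold change 0.24, SE 0.33, edgeR QL adjusted p = 0.596).

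All 12 centromere and kinetochore genes were called lower in both conditions, with medians of -6.17 in CTR and -5.34 in ELS. Ska1, a microtubule-binding kinetochore protein, went from 9.25 ± 2.304 CPM to 0.0405 ± 0.107 CPM in CTR, with counts in 1 of 7 CTR-PBS mice. Zwint, which ties the checkpoint to the kinetochore, was the exception in size. Its level was 141 ± 14.6 CPM in P9-CTR but 67.1 ± 11.7 CPM in CTR-PBS, a log2 fold change of -1.08 (SE 0.16, edgeR QL adjusted p = 1.59e-07), and -1.47 in ELS. Exons overlap an opposite-strand gene over 52.5% of Spc25 (Nostrin) and 48.1% of Ska3 (Sap18, with group means of 70.4 to 95.3 CPM). No source used here states whether reads were counted by strand, and without it reads of such pairs cannot be told apart.

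The 8 spindle and cytokinesis genes were called lower in both conditions. Racgap1, part of the centralspindlin complex that places the cleavage furrow, went from 156 ± 28.4 to 3.01 ± 1.62 CPM in CTR. Hmmr, a spindle protein that binds the hyaluronan polymer, went from 60.5 ± 11.17 to 0.294 ± 0.424 CPM, a log2 fold change of -7.68 in CTR and -5.60 in ELS. In ELS the largest fall of the spindle genes was that of Aspm, which focuses spindle poles, from 73.9 ± 21.4 to 0.967 ± 0.595 CPM (log2 fold change -6.22). Of the 7 chromosome structure genes, all called lower, Top2a (topoisomerase II alpha, chr11:98883769-98915062), which untangles sister chromatids, was the highest member by CPM at P9. It was at 172 to 337 CPM in P9-CTR with a median of 277, and at 2.49, 2.304, 0.234, 4.33, 1.497, 1.69 and 2.22 CPM in CTR-PBS. The ages were far apart, with a log2 fold change of -7.01 (SE 0.49, edgeR QL adjusted p = 7.15e-17) in CTR and -6.65 in ELS. Mki67 had the largest fall of this role in CTR, with log2 fold changes of -7.39 in CTR and -7.01 in ELS. Ncaph, the kleisin subunit that closes the condensin I ring, kept a larger share of its level than the other condensin genes. Its level went from 97.5 ± 12.3 to 35.1 ± 12.0 CPM in CTR (log2 fold change -1.48) and fell by 1.60 in ELS, where its condensin partners Smc2, Smc4, Ncapd2 and Ncapg fell by 3.48 to 4.48.

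The transcription factor genes were low at both ages. Foxm1 went from 9.76 ± 3.90 to 0.434 ± 0.454 CPM in CTR. Mybl2 (B-MYB) was at 1.98 ± 1.11 CPM in P9-CTR and had 1 count in 1 of 7 CTR-PBS mice. Pif1, a helicase that unwinds G-quadruplex DNA, was at 12.7 ± 4.76 CPM in CTR and 10.7 ± 4.45 CPM in ELS mice at P9. In adults only mouse P200_5.1_CTR_PBS had counts of Pif1 (7, or 0.278 CPM), and at the floor of 3 counts over a group it was at least 524-fold lower in ELS-PBS than in P9-ELS.

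**Figure D3:**
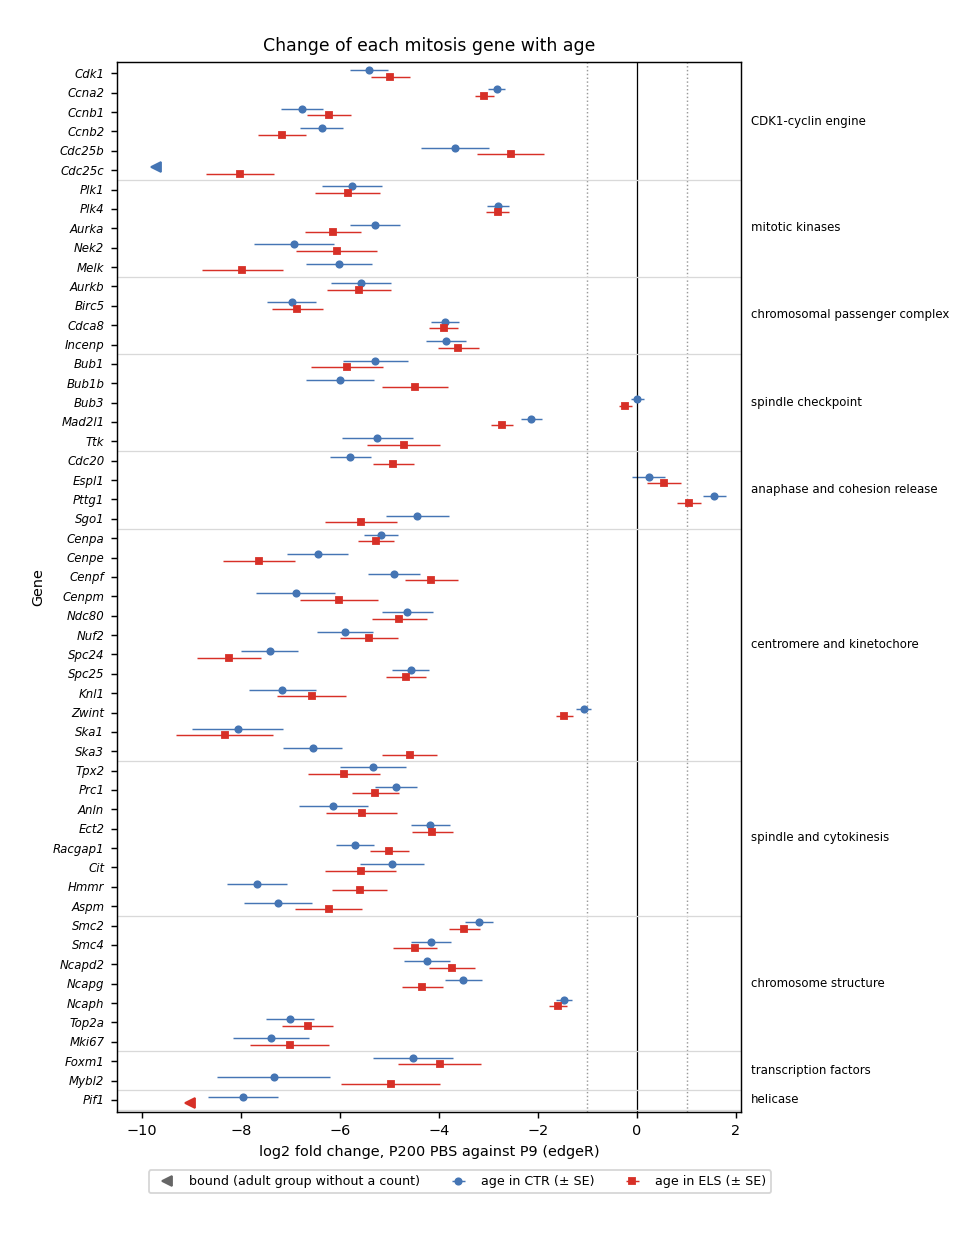
The log2 fold change of each of the 54 genes, P200 PBS mice against P9 mice, in CTR (blue circles) and ELS (red squares), with standard errors as bars; triangles mark lower bounds on the fall where the adult group had no count, and dotted lines the threshold of 1. Only Bub3, Espl1 and Pttg1 lie at or above 0 in CTR, and Zwint and Ncaph are the called genes with the smallest falls.

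The other genes of the same machinery differed by list. In CTR and in ELS alike, all 12 mitotic kinesins and 21 of 23 further centromere and outer kinetochore genes were called lower. Of the other groups, 5 of 18 APC/C genes and 2 of 3 condensin II genes were called lower in both conditions, 5 of 11 cohesin genes in CTR and 4 in ELS, and 2 of 10 DREAM and MuvB genes in CTR and 1 in ELS. Beside the 18.5% and 17.5% of all genes called lower, the DREAM and MuvB counts were near or below the background and the APC/C counts not far above it. None was called higher. Examples were Ube2c, an E2 enzyme of the APC/C (-7.10 in CTR, -5.95 in ELS), the kinesin gene Kif18b (-6.93 and -7.61), the condensin II gene Ncapg2 (-4.72 and -4.27) and the cohesin acetyltransferase gene Esco2 (-5.37 and -5.26). Kif18b had no count in 6 of 7 CTR-PBS mice and 4 of 6 ELS-PBS mice, so the size of its fall rests on few reads. The largest change of the kinetochore list in CTR was that of Cenph, from 8.42 ± 1.91 CPM in P9-CTR to a level of 0.0203 CPM in CTR-PBS, where 6 of 7 mice had no count. The largest change of a DREAM gene was that of Tfdp1, a partner of E2F factors (-2.02 and -1.75). In ELS the largest changes of the kinetochore and cohesin lists were those of Zwilch (-7.83) and Cdca5 (-5.64), which encodes the cohesin protector sororin. Zwilch had no count in 4 of 6 ELS-PBS mice.

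Markers of other cells moved with age as well. The summed level of 7 progenitor and young neuron markers was 28.3 to 75.1 CPM in P9 mice and 0 to 2.58 CPM in adults, although Sox2 and Eomes were at or near 0 at both ages. The 6 neuron markers summed to 39.2 to 186 CPM at P9 and had group medians of 5.74 to 9.53 CPM in adults, and the 5 oligodendrocyte precursor markers to at most 17.5 and 0.916 CPM. The 4 border macrophage markers summed to 464 to 914 CPM at P9 and 1.73 to 9.41 CPM in adults. Nearly all of this was Mrc1, with a median of 700.0 CPM in P9-CTR, where Cd163, Lyve1 and Pf4 were at 0.887, 2.1 and 5.06 CPM. The 10 microglia markers summed to 36300 to 64800 CPM at P9 and 64400 to 81700 CPM in adults, so the labelled cell type was dominant at both ages. The 6 monocyte and neutrophil markers stayed between 0.712 and 11.0 CPM in every mouse. Of the 7 astrocyte markers 6 were called lower with age and 1 higher in both conditions. In CTR the median of Gfap went from 39.3 to 1.23 CPM and that of Gja1 from 28.9 to 0.238 CPM, while that of Slc1a3 went from 118 to 323 CPM, so that the summed level (group medians of 248 to 576 CPM) was higher in adults through that gene. Of the 5 endothelial markers 2 were called lower in each condition, 0 higher in CTR and 1 higher in ELS, and most of their summed level was Pecam1, with medians of 26.7 CPM in P9-CTR and 45.7 CPM in CTR-PBS. Of the 5 oligodendrocyte markers 2 were called higher in each condition, 1 lower in CTR and 0 lower in ELS, with summed levels of 27.6 to 56.8 CPM as group medians. Erythroid markers had medians of 0.358 to 3.00 CPM. The part of these markers in the fall of the mitosis genes was not tested.

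**Figure D4:**
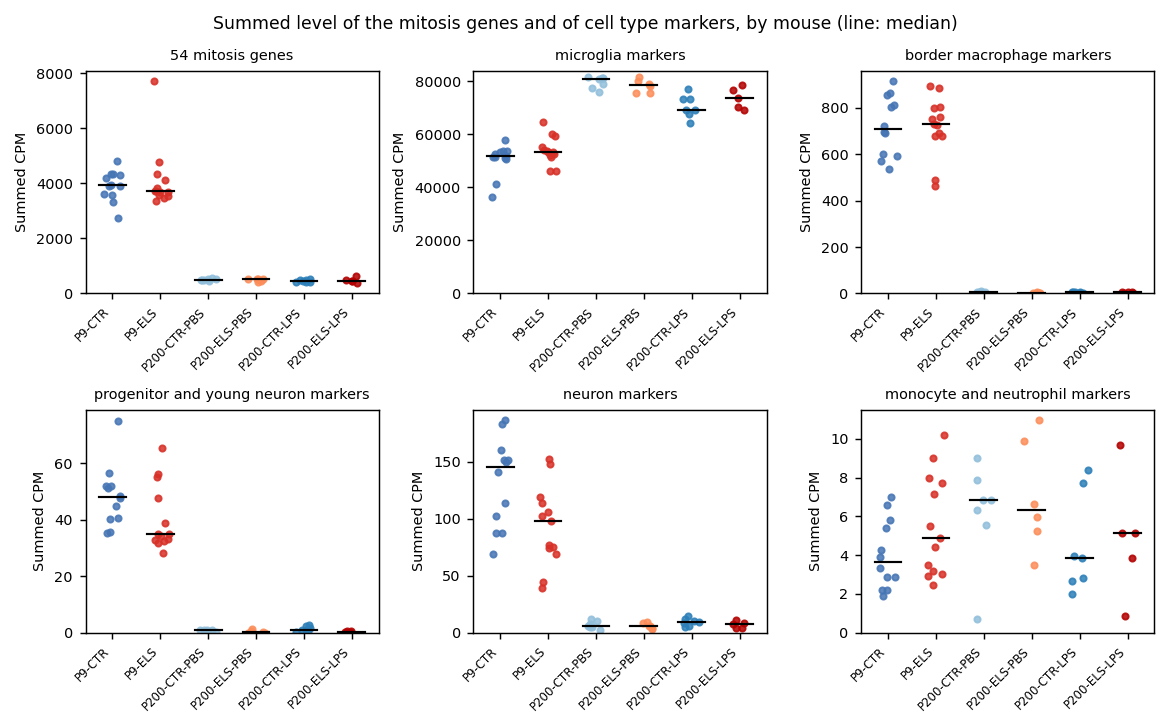
Summed CPM of the 54 mitosis genes and of 5 lists of cell type markers in each mouse, by group, with a line at the median. The mitosis sum lies between 2734 and 7731 CPM in P9 mice and between 386.8 and 640.8 CPM in adults, and the progenitor, neuron and border macrophage sums are also higher in every P9 mouse.

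ELS was compared with CTR at P9, when the stress had just ended. None of the 54 genes was called by edgeR's quasi-likelihood test, in which 0.0% of all genes were, and 2 had an unadjusted p under 0.05 (Bub3 and Zwint) among 914 genes that did. DESeq2 and limma-voom called 0 genes, and edgeR's likelihood-ratio test 1 gene, which was no member. The log2 fold changes of the members lay between -0.34 and 0.32 with a median of 0.06. For Bub3 it was 0.23 (SE 0.11, edgeR QL adjusted p = 0.908), from 214 ± 20.3 CPM (n = 12) in CTR to 250.4 ± 82.0 CPM (n = 13) in ELS, and for Zwint 0.26 (SE 0.13, adjusted p = 0.908). Mouse P9_19.2_ELS, with few detected genes, had the most counts of its group for both (10202 of Bub3 and 8305 of Zwint). Over 34 alternatives the log2 fold change ran from 0.119 to 0.237 for Bub3 and from 0.041 to 0.266 for Zwint. The standard errors of the members had a median of 0.319 and reached 0.59. A call also needed a log2 fold change above 1 in size, so smaller differences could not be called for any member and are not excluded. Each number read as a nest belonged to 1 condition, with 5 in CTR and 4 in ELS, and with it as a random effect limma-voom called 0 members.

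In adult PBS mice no member was called between ELS and CTR by edgeR's quasi-likelihood test, where 0.156% of all genes were called, and 7 members had an unadjusted p under 0.05 among 1622 genes. DESeq2 called 155 genes with 2 members and the likelihood-ratio test 191 with 3 (Hmmr, Ska3 and Cdc25c). Limma-voom, fitted throughout with the number read as the nest as a random effect, called 0. In adults each such number belonged to only CTR or only ELS. The quasi-likelihood test, DESeq2 and the likelihood-ratio test treated mice that share a number as independent. The smallest p was that of Hmmr. It was at 0, 0.0397, 1.13, 0.284, 0.57, 0 and 0.0342 CPM in CTR-PBS (43 counts in all) and at 0.62, 1.35, 2.22, 1.17, 3.02 and 1.09 CPM in ELS-PBS (215 counts). All 6 ELS-PBS mice were above 6 of the 7 CTR-PBS mice, and the remaining CTR-PBS mouse lay within the ELS-PBS range. The log2 fold change was 2.41 (SE 0.59, edgeR QL adjusted p = 0.0587), with adjusted p values of 0.00644 to 0.511 over 33 alternatives, 6 of which called it, DESeq2 and the likelihood-ratio test among them. Leaving out mouse P200_5.2_CTR_PBS or P200_15.1_CTR_PBS, or mouse P200_1.2_CTR_LPS or P200_8.3_CTR_LPS, also led to a call, with log2 fold changes of 2.41 to 3.63. Ska3 followed with 2.00 (SE 0.58, adjusted p = 0.115), which DESeq2 and the likelihood-ratio test also called.

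In adult LPS mice no member was called between ELS and CTR by edgeR's quasi-likelihood test, where 0.0% of all genes were called, and 4 members were among 798 genes with an unadjusted p under 0.05. DESeq2 called 2 genes, the likelihood-ratio test 10 and limma-voom 0, none of them members. Cdc25b had the smallest p, with a log2 fold change of 2.90 (SE 0.83, edgeR QL adjusted p = 0.641) from 0.165 ± 0.286 CPM (n = 7) in CTR-LPS to 1.27 ± 1.18 CPM (n = 5) in ELS-LPS. Cdc25c followed, with 22 counts in 3 of 7 CTR-LPS mice and 1 count in 1 of 5 ELS-LPS mice.

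Whether stress altered the difference between ages was tested by the interaction. No member was called, where 0.0299% of all genes were, and 6 members were among 1712 genes with an unadjusted p under 0.05. The likelihood-ratio test called 29 genes, DESeq2 20 and limma-voom 0, again with no member. Hmmr had the smallest p of the members, with a difference between the log2 fold changes of 2.09 (SE 0.67, edgeR QL adjusted p = 0.267), and Ska3 followed with 1.96 (SE 0.66, adjusted p = 0.304).

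The effect of LPS was tested within each condition against the PBS mice that also enter the age comparison. The median log2 fold change of the 54 was -0.03 in CTR and -0.12 in ELS. In CTR edgeR's quasi-likelihood test called 2 members lower (Cdc25b and Ndc80), where 3.6% of all genes were, and 2 higher (Ska3 and Cdc25c), where 6.02% were. These shares of the 54 are about those of all genes. Every value behind these calls was below 7 CPM.

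Cdc25b, the phosphatase that first activates CDK1 at the centrosomes, was at 0, 1.07, 0.506, 3.26, 0.784, 1.60 and 0.376 CPM in CTR-PBS (143 counts) and at 0.0666, 0.0786, 0, 0.788, 0, 0.225 and 0 CPM in CTR-LPS (23 counts). Most LPS mice were lower than most PBS mice and the groups overlapped. The log2 fold change was -2.63 (SE 0.79, edgeR QL adjusted p = 0.0171), and -2.08 with no call when mouse P200_8.1_CTR_PBS was left out. Without mouse P200_8.2_CTR_LPS the value of Cdc25b, LPS in CTR was -3.82. In ELS it was -0.55 (adjusted p = 0.715). Ndc80, the main microtubule coupler of the kinetochore, went from 2.07 ± 2.14 to 0.677 ± 0.637 CPM (7 mice each), a log2 fold change of -1.64 (edgeR QL adjusted p = 0.0306). Mouse P200_1.1_CTR_PBS, the one with few detected genes, had the highest level (6.36 CPM), and without it the value was -1.06 with no call. The call was also lost without mouse P200_18.1_CTR_PBS, P200_1.3_CTR_LPS, P200_5.3_CTR_LPS or P200_18.3_CTR_LPS.

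Ska3, a partner of Ska1 at the kinetochore, was at 0, 0.437, 0.195, 0.0709, 0.143, 0.0458 and 0.683 CPM in CTR-PBS and at 0.666, 0.943, 1.72, 1.07, 0.487, 1.21 and 0.656 CPM in CTR-LPS. In CTR-LPS 4 of 7 mice lay above every PBS mouse. Its log2 fold change was 1.94 (SE 0.57, edgeR QL adjusted p = 0.0131), no mouse decided the call (it was 2.55 without mouse P200_18.2_CTR_PBS), and in ELS the value was -0.06. Of 34 alternatives 32 called Ska3 in CTR. The fits on only the groups compared and with the number read as the nest as a block did not. Sap18, which overlaps 48.1% of its exons on the other strand, averaged 76.3 CPM in CTR-PBS and 73.3 CPM in CTR-LPS. Reads of the pair cannot be told apart. Cdc25c had no count in CTR-PBS and 22 counts in 3 of 7 CTR-LPS mice, 18 of them in mouse P200_1.3_CTR_LPS. The CTR-LPS mean was 5.32-fold above the floor of 3 counts over CTR-PBS. That floor covers counting error in CTR-PBS only, not the spread between LPS mice. The call of Cdc25c was lost without mouse P200_1.3_CTR_LPS. Mad2l1 passed the test but not the fold threshold in CTR. It was at 8.05 to 17.32 CPM in CTR-PBS and 4.59 to 9.60 CPM in CTR-LPS (log2 fold change -0.86, edgeR QL adjusted p = 0.00349), with -0.00 in ELS, and the difference between the conditions was 0.86 (SE 0.33, unadjusted p = 0.0111, edgeR QL adjusted p = 0.613).

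In ELS, LPS left 2 members called lower, where 3.17% of all genes were, and 0 higher, where 4.69% were, with 6 members among 4079 genes at an unadjusted p under 0.05. Ttk (MPS1), the kinase that starts the checkpoint signal, was at 1.64, 0.569, 0.724, 0.442, 1.49 and 0 CPM in ELS-PBS (130 counts) and at 0 in 4 of 5 ELS-LPS mice, with 7 counts in the other. The ELS mice gave a log2 fold change of -3.09 (SE 1.04, edgeR QL adjusted p = 0.0402), and -0.43 in CTR (adjusted p = 0.793). Bub1b was at 0.0282, 3.59, 7.29, 3.90, 2.25 and 3.58 CPM in ELS-PBS and at 0.221, 0.468, 0, 0.494 and 2.24 CPM in ELS-LPS, so that 1 ELS-PBS mouse lay among the ELS-LPS mice and the other 5 above all of them. Its log2 fold change was -2.35 (edgeR QL adjusted p = 0.0403) in ELS and -0.04 in CTR. The call for Ttk was lost without mouse P200_2.1_ELS_PBS or P200_17.2_ELS_PBS or mouse P200_2.2_ELS_LPS, P200_4.2_ELS_LPS, P200_11.2_ELS_LPS or P200_17.3_ELS_LPS, with values of -2.84 to -2.74. Without mouse P200_20.1_ELS_LPS no ELS-LPS mouse had a count and the fitted value of Ttk, LPS in ELS was -7.16, which is no bound on the change. For Bub1b, LPS in ELS lost its call without mouse P200_4.1_ELS_PBS, P200_11.1_ELS_PBS, P200_17.1_ELS_PBS or P200_20.2_ELS_PBS or mouse P200_2.2_ELS_LPS, P200_4.2_ELS_LPS, P200_11.2_ELS_LPS or P200_17.3_ELS_LPS, with values of -2.33 to -1.98, and it was -3.46 without mouse P200_20.1_ELS_LPS. When only the groups compared were fitted, 0 members were called in CTR and 0 in ELS, and the same numbers were found with the number read as the nest as a block. No member was called in the interaction of LPS with stress by the quasi-likelihood test, where 0.0% of all genes were called, while 7 members were among 980 genes with an unadjusted p under 0.05. DESeq2 called 15 genes and the likelihood-ratio test 66, each with Cdc25c as the only member, and limma-voom 0.

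**Figure D5:**
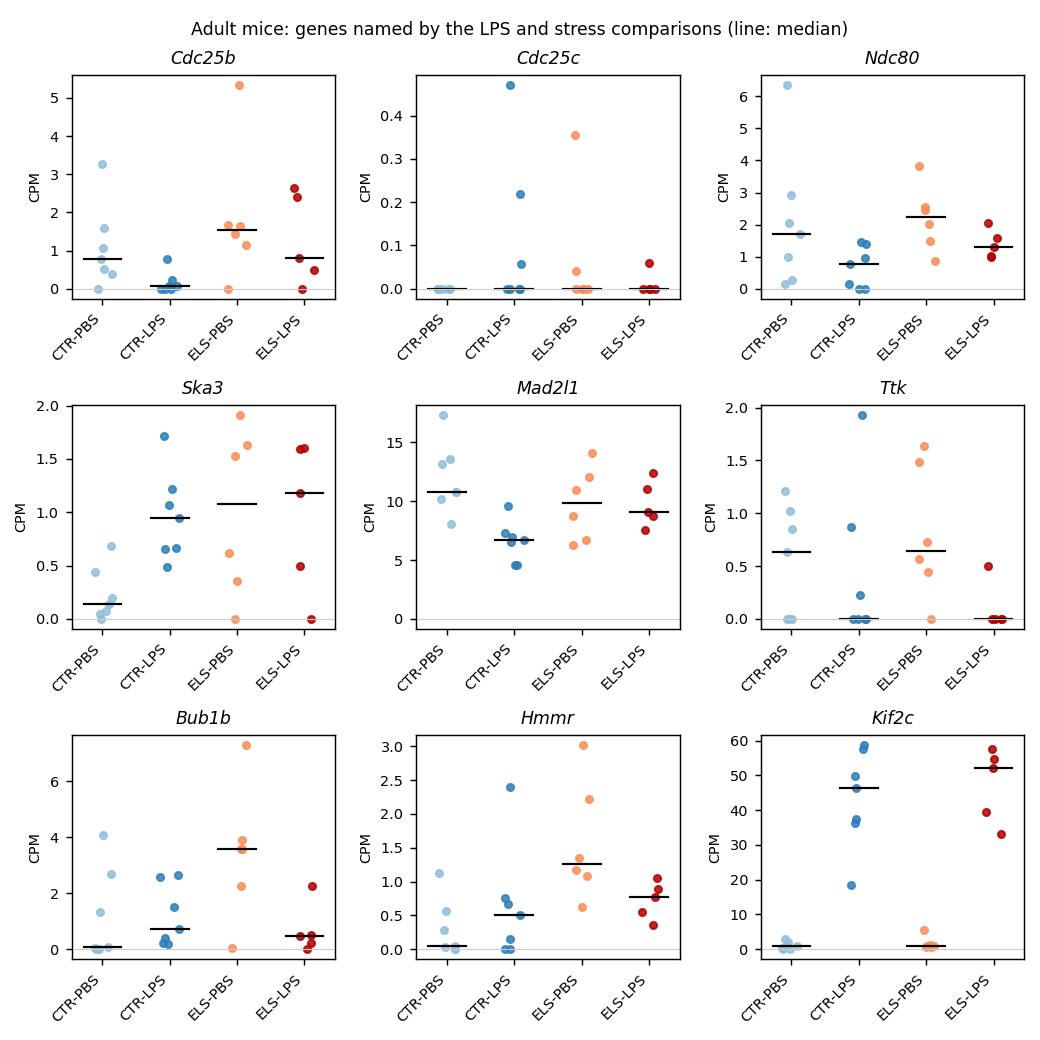
CPM of 8 mitosis genes and of the kinesin gene Kif2c in each adult mouse, by group, with a line at the median. The 8 members lie below 20 CPM with overlapping groups, while every LPS mouse is above every PBS mouse for Kif2c (18.5 CPM and up against at most 5.46 CPM).

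Outside the list, the kinesin gene Kif2c was higher in every LPS mouse than in every PBS mouse, in both conditions. Kif2c (chr4:117016830-117039836) encodes MCAK, a kinesin that takes apart microtubule ends at kinetochores, and was named as a member of the kinesin list that was called in an LPS comparison. It was at 63.9 ± 15.5 CPM (n = 12) in P9-CTR and fell with age, with log2 fold changes of -5.85 in CTR and -5.13 in ELS. In CTR-PBS it was at 0, 0.358, 3.00, 0.851, 0, 2.15 and 1.06 CPM, and in CTR-LPS at 58.7, 37.4, 18.5, 46.4, 49.9, 57.5 and 36.4 CPM. ELS-PBS mice had 1.16, 1.03, 0.879, 0.724, 5.46 and 0.597 CPM, and ELS-LPS mice 52.24, 33.0, 39.3, 57.5 and 54.8 CPM. No LPS mouse overlapped a PBS mouse, which held, with LPS higher, for 4.92% of all genes in CTR and 5.65% in ELS. For Kif2c the log2 fold change was 5.298 in CTR (SE 0.47, edgeR QL adjusted p = 7.32e-13) and 4.86 in ELS (SE 0.50, adjusted p = 9.24e-11). Kif2c was called in all 35 alternatives in each condition, and the difference between the conditions was -0.44 (SE 0.62, edgeR QL adjusted p = 0.983).

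The other 11 kinesins were not called after LPS in either condition. In CTR 1 of 10 DREAM and MuvB genes and 1 of 18 APC/C genes were called lower, 2 of 23 centromere and outer kinetochore genes were called higher, and no cohesin or condensin II gene was called. In ELS 1 DREAM and MuvB gene was called lower and 1 kinetochore gene higher. With 3.6% lower and 6.02% higher over all genes in CTR, and 3.17% and 4.69% in ELS, these counts are near or below the background. The genes called lower were Lin9, a MuvB subunit, in both conditions (log2 fold changes of -1.01 in CTR and -1.61 in ELS) and Fbxo5, an inhibitor of the APC/C, in CTR (-1.66). Of the kinetochore genes called higher, Kntc1 went from 2.08 ± 1.59 to 5.03 ± 1.07 CPM in CTR. Cenph in CTR (0.0203 to 0.153 CPM) and Zwilch in ELS (0.0702 to 0.497 CPM) stayed close to 0. No gene of these lists was called between ELS and CTR at P9 or in adults, or in either interaction, by edgeR's quasi-likelihood test. Of these lists only Kif2c was followed in the other tests, so their calls for the remaining genes are not given.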

How the data were processed

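The members and all gene lists were chosen with earlier results of these data known. Poly-A mRNA-seq libraries (NEBNext Low Input) were made per mouse. The authors demultiplexed (bcl2fastq 2.20), trimmed (cutadapt 2.10), aligned with STAR to GRCm39 and deposited whole-number counts per gene from HTSeq 0.11.0. The annotation release and strand setting are not given in the sources used here.

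Groups came from the sample labels. Genes were kept if more than 2 mice reached 1 CPM, and were tested with edgeR 4.0.16 (R 4.3.3, TMM, quasi-likelihood, 1 mean per group, all 50 mice), with Benjamini-Hochberg adjustment over all genes. Standard errors are the log2 fold change over the root of F. In counts simulated for stress in adult PBS, 160 of 200 changed genes (log2 fold change 2 among 16696) were recovered, with 2 false calls. The changed genes were drawn from those with a mean above 1 CPM over all 50 mice, and no nest effect was simulated. In adult PBS mice 18 members were under 1 CPM, so this recovery does not describe the detection of stress effects in members with low adult levels. Precision is limited by 5152838 to 42231258 counts per mouse. Alternatives were DESeq2 1.42.0, limma-voom 3.58.1 with nest as a random effect, edgeR's likelihood-ratio test and nest as a block in edgeR. Further alternatives were other filters, thresholds and samples, and leaving out each adult mouse. The nest was read from the mouse number and is not stated in the labels. By rule, the named members were the highest at P9 and the one with the largest fall in CTR in each role, those not called with age, those called with LPS or stress (otherwise the 2 with the smallest p), the 5 highest in adults and those without a count in an adult group. Of the pathway lists they were the largest age change and every LPS or stress call. Ccna2, Plk4, Melk, Bub1, Aspm, Incenp, Cdca8, Sgo1 and the condensin partners of Ncaph were named after their values were seen. Lin54 was not found by symbol, and 1 cell type marker is not reported here by name.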

Additional observations from a re-analysis of the deposited data

Results flagged for a closer look

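In the adult groups, 11 of 64 pairs of a group and a gene given by mouse had 1 mouse far from the others (gap over range above Dixon's 95% value). Over all members 36 of 212 pairs did, and the summed level had 0 of 4. Dixon's value flags about 1 in 20 in normally distributed values. That rate does not apply to CPM with many values at 0, where a group with counts in only 1 mouse is always flagged. Cdc25b was at 5.35 CPM in mouse P200_17.1_ELS_PBS (next 1.68) and at 0.788 CPM in mouse P200_8.2_CTR_LPS (next 0.225). Cdc25c was at 0.356 CPM in mouse P200_4.1_ELS_PBS and 0.0585 CPM in mouse P200_4.2_ELS_LPS, where the other 4 had no count. In ELS-LPS, mouse P200_20.1_ELS_LPS had 2.24 CPM of Bub1b (next 0.494) and 0.506 CPM of Ttk (others 0), and mouse P200_11.2_ELS_LPS had 297 CPM of Bub3 (next 209). Hmmr was at 2.40 CPM in mouse P200_1.2_CTR_LPS (next 0.759) and Top2a at 8.44 CPM in mouse P200_5.3_CTR_LPS (next 3.30). Ncaph was at 61.4 CPM in mouse P200_1.1_CTR_PBS (next 36.1), which has few detected genes, and Pif1 at 0.278 CPM in mouse P200_5.1_CTR_PBS (others 0). Most of these genes have few counts in adults, and the part of the low counts in these gaps was not tested.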

How the results depend on the processing

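Other tests, scalings, sample sets and fold thresholds left 52 members called with age in each condition, while the numbers called with LPS or stress changed. When genes at 0 in more than 2 mice were left out, 29 members were tested and 27 were called for age in CTR, 26 for age in ELS, 1 for LPS in CTR and 0 for LPS in ELS. Stress in adult PBS gave 3 members with the likelihood-ratio test and 2 with DESeq2, and the LPS by stress interaction 1 with each. When only the groups compared were fitted, 0 were called for LPS in CTR and 0 for LPS in ELS. With the nest as a replicate block the values were 0 and 0, with the nest as a random effect in voom 1 and 0, and with every gene that had any count LPS in ELS had 0. Leaving out 1 adult mouse at a time gave 52 to 52 members for age in CTR, 51 to 52 for age in ELS, 0 to 1 for stress in adult PBS, 2 to 5 for LPS in CTR and 0 to 3 for LPS in ELS, and 0 to 0 for the other comparisons. P9 mice were not left out 1 at a time. These ranges therefore do not show how stress at P9 or the age comparisons depend on single P9 mice. The log2 fold change of Bub3, age in CTR, became -0.042 with the filter on 0 and -0.0429 without the 3 mice with few detected genes, and ran from -0.0429 to 0.0448 without single mice. That of Ska3, LPS in ELS, ran from -0.33 to 0.27. Of the 10 highest members at P9 by CPM, 5 remained per kilobase of exon. Over all genes tested, deviations of PBS and LPS mice of the same nest had correlations of -0.04 to 0.08. The correlation within a nest estimated for limma-voom was 0.078. Such values over all genes cannot exclude an effect of the nest on some of them. The cause of the changes between settings was not tested. Adult levels under 2 CPM in 28 of the 54 members limit the depth of the LPS and stress comparisons.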
